A study of Mus musculus with 6 samples.

Results

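The circadian clock core and output genes are 10 genes chosen by name: Clock, Arntl, Per1, Per2, Per3, Cry1, Cry2, Nr1d1, Nr1d2 and Dbp. They were found by symbol among the 50686 gene identifiers of the deposited count table, and all 10 were among the 13178 genes tested. RNA was sequenced from the lacrimal glands, which make the aqueous tears, of adult mice at 13 weeks of age. The Eda-/- group held 3 biological replicates, titled Tabby after the mouse mutant that lacks ectodysplasin A, a signal of the TNF family. The wild-type group held the other 3. All 6 samples carried the strain label C57BL/6, and the labels name no other allele, agent or treatment. The labels give neither the sex of the mice nor the time of day at which glands were taken, so the genes were read by phase arm with no reference time.

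In mammals CLOCK and BMAL1, the protein made from Arntl, bind E-box sequences together and switch on the Per and Cry genes, whose proteins return to the nucleus and inhibit them. The same pair drives Nr1d1 and Nr1d2, which encode REV-ERB alpha and beta, repressors of Arntl that compete with ROR activators, and Dbp, whose protein activates genes through D-boxes. The Per, Nr1d and Dbp transcripts therefore peak in the same part of the daily cycle in peripheral tissues, though not all at the same hour. Arntl is low in that part of the cycle. Clock itself cycles weakly in many tissues.

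RefSeq promoter windows (GRCm38.p6, 250 bases before to 50 after a start) were held for 9 of the 10 genes, in 13 windows, and Per2 had none. The windows below carry motifs through which the loop works, and they are shown 5′ to 3′ on the gene's strand with the motif letters in capitals. The Per3 window (chr4:151044616-151044915, minus strand) has the D-box TTATGTAA at -205 and -158, counted from the start to the motif's leftmost base. The Per1 window of one of its starts (chr11:69098699-69098998, plus strand) has the E-box CACGTG at -166 and, at -137, TGACCT, the reverse of the core AGGTCA that ROR and REV-ERB proteins bind. One of the Arntl windows (chr7:113207261-113207560, plus strand) has AGGTCA at 32.
Per3: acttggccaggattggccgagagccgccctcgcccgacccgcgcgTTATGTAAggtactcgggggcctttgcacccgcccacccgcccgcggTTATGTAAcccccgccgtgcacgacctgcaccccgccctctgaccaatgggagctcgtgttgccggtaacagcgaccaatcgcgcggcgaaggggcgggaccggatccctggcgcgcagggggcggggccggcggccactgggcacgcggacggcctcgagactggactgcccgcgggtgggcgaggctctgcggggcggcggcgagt
Per1: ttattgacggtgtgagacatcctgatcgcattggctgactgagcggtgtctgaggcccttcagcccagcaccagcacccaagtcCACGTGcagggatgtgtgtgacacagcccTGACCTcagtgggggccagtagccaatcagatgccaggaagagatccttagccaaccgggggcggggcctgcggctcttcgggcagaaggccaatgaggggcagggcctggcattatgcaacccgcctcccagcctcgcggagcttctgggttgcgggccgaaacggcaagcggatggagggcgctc
Arntl: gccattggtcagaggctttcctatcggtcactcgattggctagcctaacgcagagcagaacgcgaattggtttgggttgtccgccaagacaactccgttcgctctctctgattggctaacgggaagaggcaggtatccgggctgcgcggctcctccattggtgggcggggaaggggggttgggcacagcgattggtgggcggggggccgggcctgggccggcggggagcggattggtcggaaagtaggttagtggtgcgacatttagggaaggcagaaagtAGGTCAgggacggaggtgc
Both strands were searched for 5 motifs, which overlap each other in no printed window. TTATGTAA was found in 0.938% of all 32851 promoter windows, and among the members in Per3 alone. CACGTG was found in 7.15% of all windows, and in Per1 and Cry1. Its variant CACGTT (4.68% of windows) was found in Cry1, Cry2 and Nr1d1, and AGGTCA (16.3%) in Per1, Arntl, Clock and Nr1d2. The cAMP response element TGACGTCA (1.79%) was found in none of the member windows. A match is a description of letters, and elements outside these windows were not searched.

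Library totals ran from 11894395 to 14480331 counts in Eda-/- and from 13670343 to 15700899 counts in wild-type glands. Eda itself had 2, 0 and 0 counts in Eda-/- 1, 2 and 3 and 41, 48 and 42 counts in wild-type 1, 2 and 3. The acinar markers were present in every library, with summed levels of 3650 to 4583 CPM (counts of a gene per 1000000 library counts, scaled between libraries by TMM) in Eda-/- and 3100 to 3976 CPM in wild-type glands. Pairs of libraries of a group differed by more than sampling noise. The 10 genes had between 8 and 2093 counts in a library, and the fewest fell on Arntl.

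The period genes Per2 and Per3 fell in Eda-/- glands, and no clock gene rose. Dbp had the lowest fold change of the 10 and did not pass. Per1, Nr1d1 and Nr1d2 had lower group means without passing. Arntl and Clock, the genes of the opposite arm, did not pass in either direction. In numbers, 2 of the 10 passed, both lower, where 6.9% of all tested genes passed lower, 6.21% higher and 13.1% in either direction. A gene passed when its adjusted p in edgeR's quasi-likelihood fit, by Benjamini and Hochberg over all tested genes, was under 0.05. All 6 genes of the Per, Nr1d and Dbp arm had log2 fold changes below 0. The median log2 fold change was -0.44 over those 6, -0.36 over the 10 members and 0.003 over all tested genes. The groups did not overlap for 3 of the 10, Per2, Per3 and Dbp, all lower, where 16.2% of all tested genes were lower without overlap. The median log2 fold change of all genes was -0.28 with library totals in place of TMM. With library totals, 8 of the 10 passed lower, as did 4365 of all tested genes, and 246 of all passed higher. These counts describe genes chosen by name and are not set against chance. In whole-gland RNA, fewer cells of a type and less of a transcript per cell cannot be told apart.

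**Figure D1:**
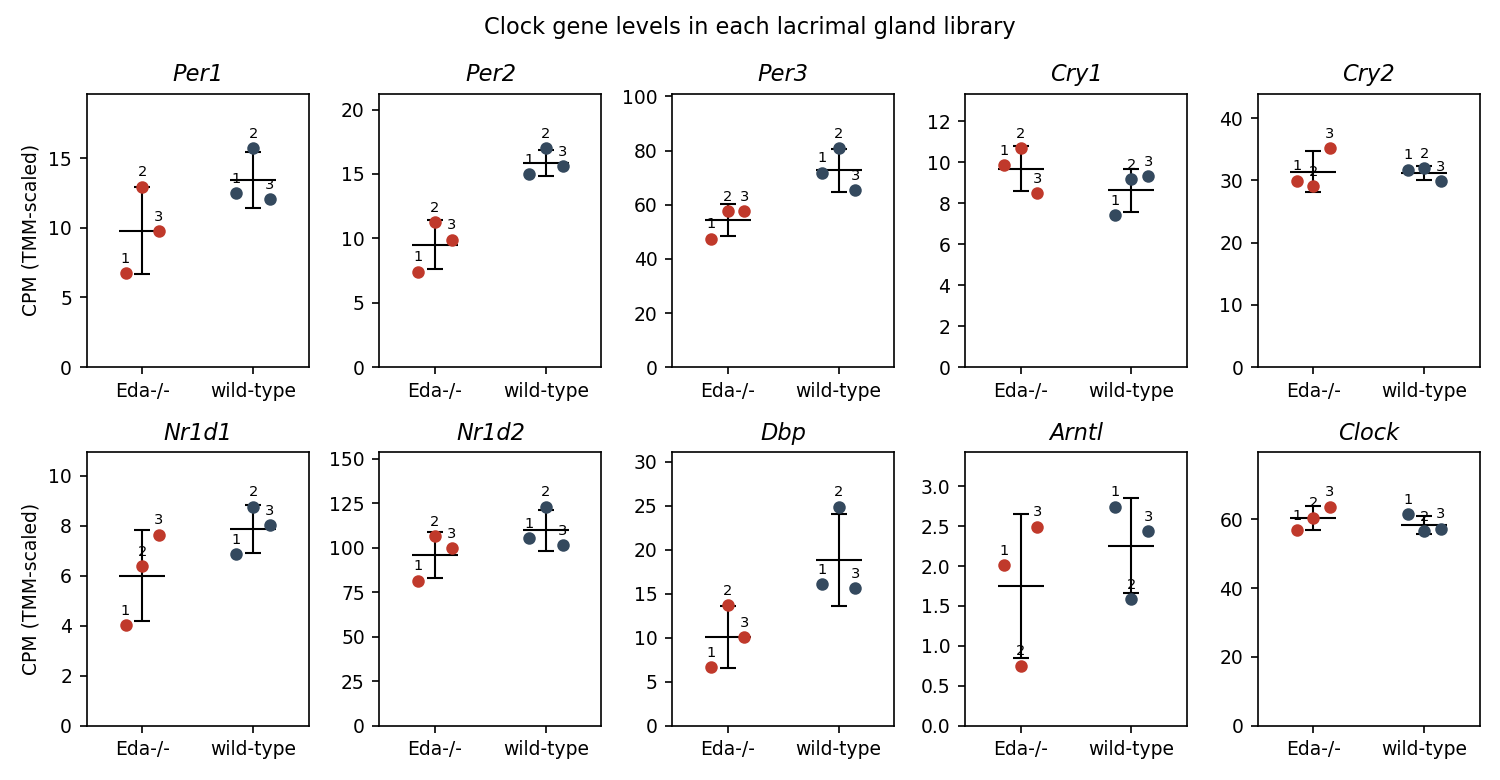
Levels of the 10 clock genes in each library, in TMM-scaled CPM from 0, with Eda-/- libraries (red) left of wild-type libraries (dark blue); numbers are replicates, and bars are the group mean and SD (n = 3 each). The groups are apart for Per2, Per3 and Dbp and overlap for the other genes.

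Among the positive elements, Clock encodes the histone acetyltransferase partner of BMAL1 (chr5:76209868-76304792, GRCm38, minus strand). It had 56.8, 60.4 and 63.6 CPM in Eda-/- 1, 2 and 3, against 61.4, 56.5 and 57.3 CPM in wild-type 1, 2 and 3. The groups overlapped throughout this narrow range (log2 fold change 0.05, SE 0.08, adjusted p = 0.75). With library totals in place of TMM scaling the sign of Clock turned (-0.24, adjusted p = 0.0221), in a scaling where the median of all genes lay at -0.28.

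Arntl, which encodes BMAL1 (chr7:113207465-113314126, plus strand), was the scarcest of the 10. It had 23, 8 and 32 counts in Eda-/- 1, 2 and 3, or 2.01, 0.75 and 2.50 CPM. In wild-type 1, 2 and 3 it had 44, 27 and 38 counts, or 2.74, 1.59 and 2.44 CPM. The second library was the lowest in each genotype, and Eda-/- 2 was the lowest of all. Its exact 95% Poisson interval ran from 0.324 to 1.48 CPM, against 1.27 to 3.01 CPM in Eda-/- 1 and 1.71 to 3.52 CPM in Eda-/- 3 (counting error only). The groups overlapped, and the difference did not pass (log2 fold change -0.33, SE 0.35, adjusted p = 0.594). Without Eda-/- 2 the log2 fold change was 0.01 (SE 0.29, adjusted p = 0.989), so the value below 0 rests on that library.

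Of the negative elements, Per2 (chr1:91415982-91459324, minus strand), a PERIOD protein that scaffolds the repressor complex, was the member whose call held most widely. It had 7.42, 11.2 and 9.90 CPM in Eda-/- 1, 2 and 3, against 14.96, 17.0 and 15.6 CPM in wild-type 1, 2 and 3. Every Eda-/- library lay below every wild-type library. Per2 averaged 9.52 ± 1.94 CPM in Eda-/- and 15.9 ± 1.04 CPM in wild-type glands (SD, n = 3 each), a log2 fold change of -0.74 (SE 0.13, edgeR adjusted p = 0.00172). It passed in each of the 16 alternative fits, with adjusted p up to 0.0162 and, with 1 library left out, log2 fold changes from -0.86 to -0.58.

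Per3 (chr4:151003652-151044665, minus strand) is a period gene that the clock can run without in mice. It had 47.5, 57.6 and 57.6 CPM in Eda-/- 1, 2 and 3, against 71.8, 80.9 and 65.3 CPM in wild-type 1, 2 and 3. The groups did not overlap, although Eda-/- 2 and 3 came near wild-type 3. The means were 54.3 ± 5.85 CPM in Eda-/- and 72.7 ± 7.83 CPM in wild-type glands, and the log2 fold change was -0.42 (SE 0.10, edgeR adjusted p = 0.0093). Per3 did not pass without wild-type 2 (-0.33, adjusted p = 0.0686) or once counts were corrected for GC content and transcript length (-0.35, SE 0.11, adjusted p = 0.0518). Its promoter window is the one with a pair of D-boxes printed above.

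Per1 (chr11:69095217-69109960, plus strand), the period gene that also answers acutely to cAMP and glucocorticoid signals, had 6.72, 12.9 and 9.75 CPM in Eda-/- 1, 2 and 3. In wild-type 1, 2 and 3 it had 12.5, 15.7 and 12.1 CPM. Eda-/- 2 lay among the wild-type libraries, and the difference did not pass (log2 fold change -0.46, SE 0.21, adjusted p = 0.199). Without Eda-/- 2, Per1 passed (-0.69, adjusted p = 0.0259), and without Eda-/- 1 it had -0.25 (adjusted p = 0.359).

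The cryptochromes, the main repressors of CLOCK and BMAL1, showed no called difference. Cry1 (chr10:85131700-85185064, minus strand) had 9.87, 10.7 and 8.50 CPM in Eda-/- 1, 2 and 3 and 7.42, 9.17 and 9.31 CPM in wild-type 1, 2 and 3 (log2 fold change 0.16, SE 0.14, adjusted p = 0.489). Cry2 (chr2:92403646-92434043, minus strand) had 29.9, 29.1 and 35.2 CPM in Eda-/- 1, 2 and 3 and 31.7, 31.9 and 29.9 CPM in wild-type 1, 2 and 3 (0.01, SE 0.09, adjusted p = 0.954). Both overlapped between groups. The sign turned below 0 with library totals for Cry1 (-0.12) and for Cry2 (-0.27, adjusted p = 0.0287), and with upper quartile scaling for Cry2 (-0.02).

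In the REV-ERB loop, Nr1d1 (chr11:98767932-98775333, minus strand) had 4.02, 6.37 and 7.64 CPM in Eda-/- 1, 2 and 3, against 6.86, 8.76 and 8.02 CPM in wild-type 1, 2 and 3. Eda-/- 3 lay among the wild-type libraries, and the difference did not pass (log2 fold change -0.38, SE 0.19, adjusted p = 0.221). Nr1d1 shares 263 exon bases, 8.55% of its own, with Thra on the opposite strand, and Thra did not pass (-0.11, adjusted p = 0.771). Nr1d2 (chr14:18204054-18239127, minus strand), far more abundant, had 81.5, 106.7 and 99.6 CPM in Eda-/- 1, 2 and 3 and 105.4, 123.1 and 101.4 CPM in wild-type 1, 2 and 3. Its groups overlapped, and it did not pass (-0.20, SE 0.10, adjusted p = 0.236). Without Eda-/- 1 the log2 fold changes of Nr1d1 and Nr1d2 were -0.16 and -0.09.

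Dbp (chr7:45705088-45710203, plus strand), the output transcription factor whose mRNA cycles with high amplitude in many tissues, had 6.64, 13.7 and 10.06 CPM in Eda-/- 1, 2 and 3. In wild-type 1, 2 and 3 it had 16.1, 24.9 and 15.6 CPM. The groups did not overlap, but the libraries of each genotype were spread widely, the highest over the lowest being 2.06 in Eda-/- and 1.6 in wild-type glands. The means were 10.1 ± 3.52 CPM in Eda-/- and 18.9 ± 5.22 CPM in wild-type glands. The log2 fold change was -0.91 (SE 0.33), with an unadjusted p of 0.0397 and an edgeR adjusted p of 0.159, so it did not pass. Dbp passed in limma-voom (adjusted p = 0.0294) and not in DESeq2 (adjusted p = 0.112). It shares 539 exon bases, 18% of its own, with Sphk2 on the opposite strand, and the strand setting of the counting is not given in the sources used here. Sphk2 had a value above 0 and did not pass (0.24, SE 0.14, adjusted p = 0.29).

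The comparison by phase asked whether the arm of Per1, Per2, Per3, Nr1d1, Nr1d2 and Dbp and the arm of Arntl and Clock moved apart between the genotypes. The data showed no called movement in opposite directions, since neither Arntl nor Clock passed. The mean log2 CPM of the 6-gene arm was 4.12 ± 0.34 in Eda-/- and 4.65 ± 0.18 in wild-type glands (SD, n = 3 each), a difference of -0.53. That of Arntl and Clock was 3.35 ± 0.42 in Eda-/- and 3.55 ± 0.22 in wild-type glands, a difference of -0.20 carried by Arntl. The first arm minus the other gave 0.27, 1.50 and 0.54 in Eda-/- 1, 2 and 3, against 0.81, 1.55 and 0.94 in wild-type 1, 2 and 3. These values overlapped between the groups, with means of 0.77 ± 0.65 in Eda-/- and 1.10 ± 0.40 in wild-type glands and a difference of -0.33. The difference was -0.70 without Eda-/- 2 and -0.08 without Eda-/- 1. The time of dissection is not in the labels, and its part in the genotype differences was not tested.

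**Figure D2:**
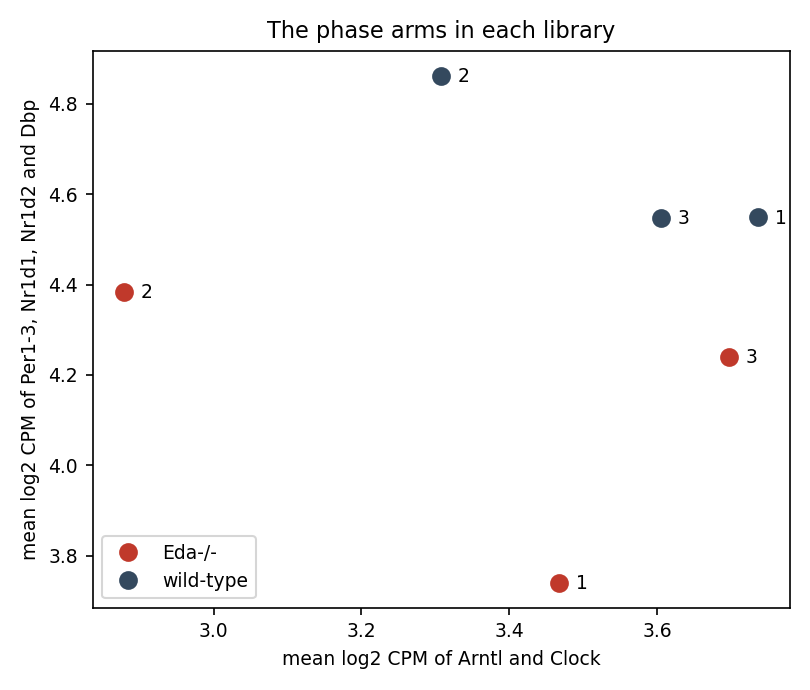
Mean log2 CPM of Per1, Per2, Per3, Nr1d1, Nr1d2 and Dbp (vertical) against that of Arntl and Clock (horizontal) in each library, Eda-/- in red and wild-type in dark blue, numbered by replicate. The Eda-/- libraries lie lower on the vertical axis, and replicate 2 of each genotype lies highest within its genotype and farthest to the left.

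Between libraries of the same genotype, the highest levels of the 6-gene arm and the lowest Arntl fell on the same library. Within Eda-/- glands, replicate 2 had the highest level for 5 of the 6 arm genes and the lowest Arntl, while replicate 1 had the lowest level for all 6. Within wild-type glands, replicate 2 had the highest level for all 6 and again the lowest Arntl. Relative to the wild-type mean, Dbp stood at -1.45, -0.42 and -0.86 (log2 CPM) in Eda-/- 1, 2 and 3 and at -0.19, 0.43 and -0.24 in wild-type 1, 2 and 3. Arntl stood at -0.12, -1.39 and 0.17 in Eda-/- 1, 2 and 3 and at 0.30, -0.44 and 0.14 in wild-type 1, 2 and 3. The log2 ratio of Dbp to Arntl within a library does not depend on scaling between libraries, apart from the prior count of 2. That prior weighs most in Eda-/- 2, where Arntl had 8 counts, and lowers the ratio there. The ratio was 1.66, 3.95 and 1.95 in Eda-/- 1, 2 and 3 and 2.49, 3.85 and 2.61 in wild-type 1, 2 and 3. The libraries numbered 2 thus stood together on this ratio, across genotypes, and the others stood below them. The log2 ratio of Nr1d1 to Arntl averaged 1.79 ± 0.98 in Eda-/- and 1.77 ± 0.55 in wild-type glands. With 3 libraries a genotype and few Arntl counts, this order is a description of these libraries.

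**Figure D3:**
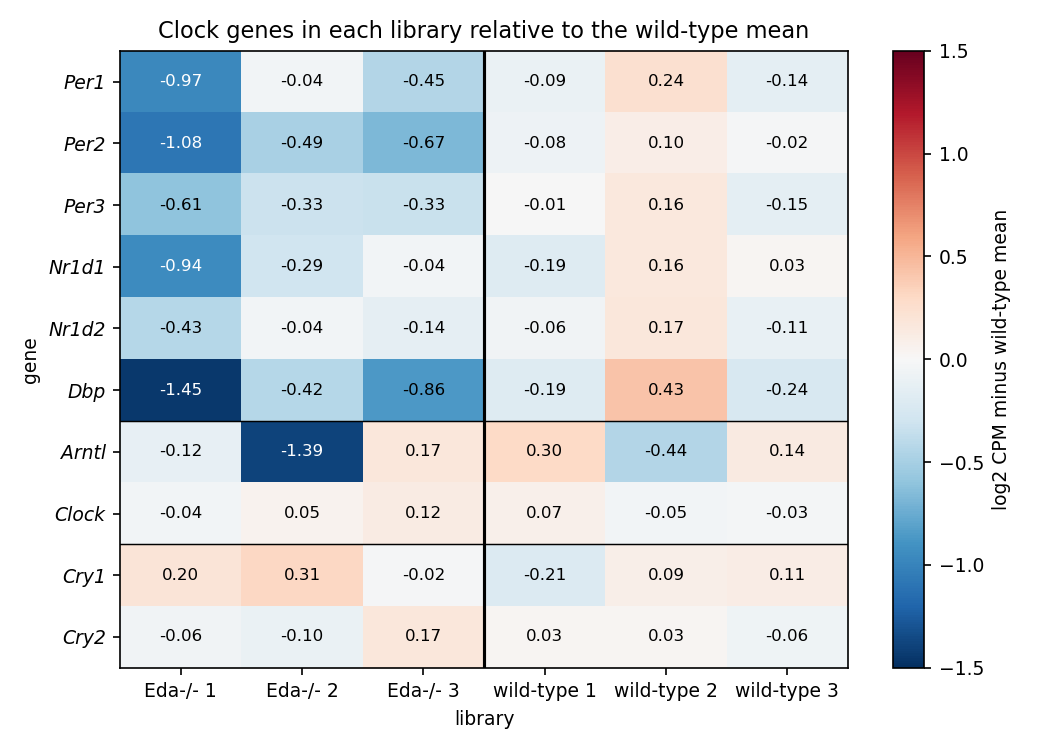
Log2 CPM of each clock gene in each library minus the gene's wild-type mean (blue lower, red higher), with Eda-/- libraries left of the vertical line and wild-type libraries right of it; horizontal lines part the Per, Nr1d and Dbp arm, the Arntl and Clock arm and the cryptochromes. Eda-/- 1 is lowest for the first arm, and the deepest Arntl value, -1.39, is in Eda-/- 2.

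Per kilobase of annotated exon, Nr1d2 stood far above the other members, at 17.7 ± 2.40 CPM per kb in Eda-/- and 20.3 ± 2.13 CPM per kb in wild-type glands (SD, n = 3 each). Per3 came next, at 5.65 ± 0.61 CPM per kb in Eda-/- and 7.56 ± 0.81 CPM per kb in wild-type glands. In Eda-/- glands the order then ran Cry2, Clock, Dbp, Cry1, Nr1d1, Per1, Per2 and Arntl. There the ranges of Per3, Cry2, Clock and Dbp each overlapped that of the next gene in the order, as did Nr1d1 with Per1 and Per1 with Per2. In wild-type glands Dbp stood next after Per3, at 6.30 ± 1.74 CPM per kb, and its range overlapped that of Per3 above it and not that of Cry2 below it. In Eda-/- glands it stood between Clock and Cry1, at 3.38 ± 1.18 CPM per kb. Cry2, Clock, Per2, Cry1, Nr1d1, Per1 and Arntl followed in wild-type glands, where neighbours from Per2 to Per1 overlapped. Arntl was lowest in both, at 0.23 ± 0.12 CPM per kb in Eda-/- and 0.30 ± 0.08 CPM per kb in wild-type glands.

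Calls among other genes of the clock network were read beside those over all tested genes, where 6.9% passed lower and 6.21% higher. Among 6 further genes listed by name with the phase of the Per genes, Bhlhe40 fell and none rose (median log2 fold change -0.41). Bhlhe40 encodes DEC1, a repressor of CLOCK and BMAL1, and averaged 13.1 ± 1.93 CPM in Eda-/- and 17.5 ± 2.77 CPM in wild-type glands (log2 fold change -0.42, SE 0.13, adjusted p = 0.0495). The other 5 did not pass. They were the D-box activators Hlf (-0.55) and Tef (0.04), the repressors Ciart (-0.43) and Bhlhe41 (-0.39), and the ubiquitin protease gene Usp2 (-0.06). Of the genes listed by name with the phase of Arntl, Npas2 was too low to be tested. The phase of the listed genes in this gland was not tested. Nfil3, the repressor that competes with DBP at D-boxes, had -0.67 (SE 0.22, adjusted p = 0.0579), and Rora (-0.02), Arntl2 (-0.02) and Cipc (-0.07) did not pass. Bhlhe40 lost its call when wild-type 2, wild-type 3, Eda-/- 1 or Eda-/- 3 was left out (adjusted p up to 0.202). It also missed the threshold with DESeq2 size factors (0.0504), in DESeq2 (0.0968), in limma-voom (0.0783) and once counts were corrected for GC content and transcript length (0.0506).

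**Figure D4:**
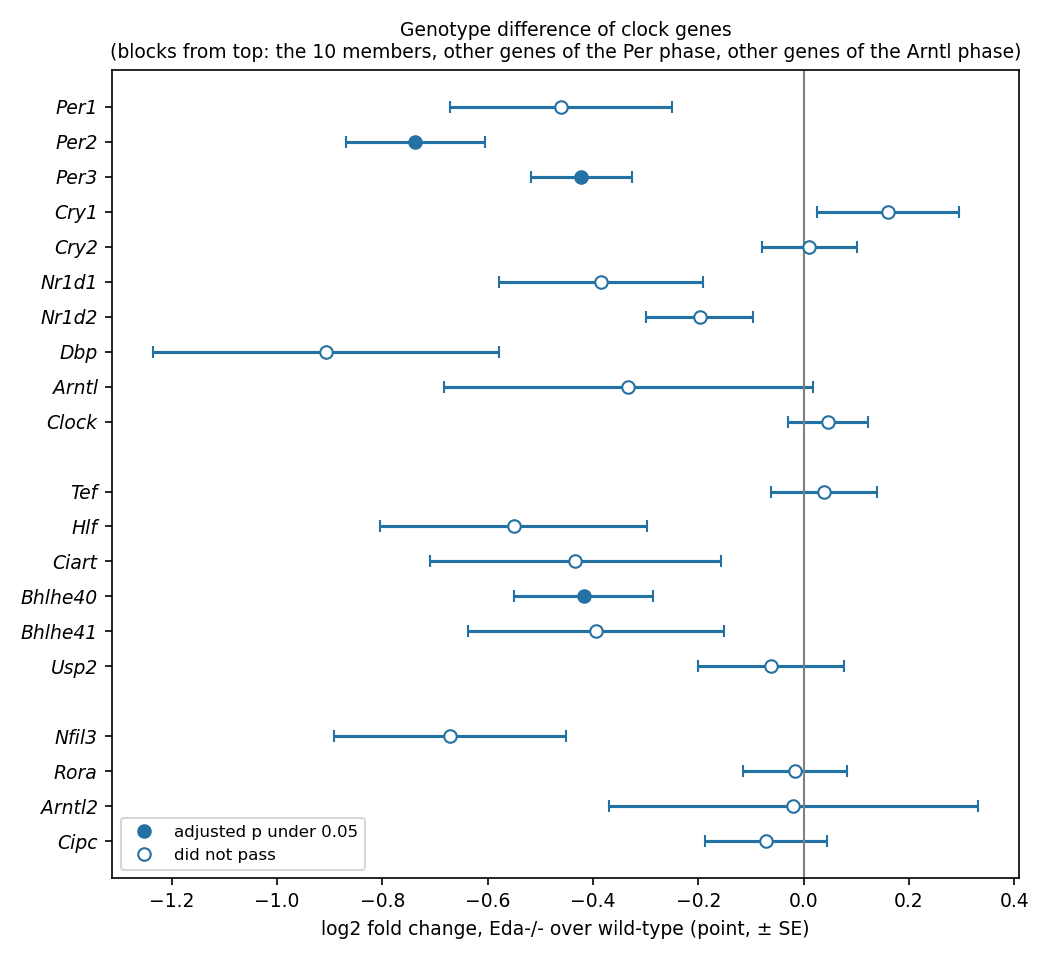
Log2 fold change of Eda-/- over wild-type with SE. The top block holds the 10 clock genes, the middle further genes listed with the Per phase and the bottom 4 listed with the Arntl phase. Filled points passed the adjusted p threshold of 0.05. The filled points are Per2, Per3 and Bhlhe40, all below 0.

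Of 16 tested kinases, ubiquitin ligases and cofactors of the clock, 1 rose and 1 fell (median -0.01), against 6.21% and 6.9% of all tested genes. Prkaa2, a catalytic subunit of the energy sensor AMPK, which marks CRY1 for degradation, rose by 0.54 (SE 0.15, adjusted p = 0.0279). It did not pass without wild-type 1, Eda-/- 1 or Eda-/- 2 (adjusted p up to 0.114) or with library totals (0.26, adjusted p = 0.231). Timeless, a replication fork protein named after the fly clock gene, fell by 1.85, at 0.29 ± 0.13 CPM in Eda-/- and 1.06 ± 0.39 CPM in wild-type glands (SE 0.47, adjusted p = 0.018). Its counts were 5, 2 and 3 in Eda-/- 1, 2 and 3 and 16, 12 and 23 in wild-type 1, 2 and 3. The filter of at least 1 CPM in all libraries of a group left Timeless out. It did not pass without wild-type 3, Eda-/- 2 or Eda-/- 3 (up to 0.0812). In DESeq2 neither passed, with adjusted p of 0.0606 for Prkaa2 and 0.0686 for Timeless. Csnk1d (0.13) and Csnk1e (-0.36), the casein kinases that set PER stability, did not pass.

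Genes that respond to systemic cues able to set Per1 and other clock genes were read as lists. The counts stand beside 6.9% of all tested genes lower and 6.21% higher, and the part of any cue was not tested. Of 12 tested glucocorticoid-responsive genes 2 fell and none rose (median -0.19): the kinase gene Sgk1 (-0.69, adjusted p = 0.0209) and Errfi1 (-0.41, adjusted p = 0.0222), a feedback inhibitor of the EGF receptor. The glucocorticoid target Fkbp5 had 138, 153 and 111 CPM in Eda-/- 1, 2 and 3 and 113, 103 and 74.6 CPM in wild-type 1, 2 and 3, and did not pass (0.46, adjusted p = 0.2). Of 8 temperature-responsive genes 2 fell and none rose (median -0.17). Cirbp, the cold-inducible RNA-binding protein, had -0.37 (adjusted p = 0.0146) and its relative Rbm3 had 0.07 without passing, while the heat-shock chaperone Hspa1a had -1.90 (adjusted p = 0.0176). Of 9 tested immediate early genes Junb fell (-0.42, adjusted p = 0.0355) and none rose (median -0.42). Atf3 (-1.59), Jun (-1.48), Fos (-1.21) and Dusp1 (-0.58) had lower fold changes than Junb and did not pass. Btg2 (-0.39), Ier2 (-0.15), Nr4a1 (-0.04) and Klf4 (0.01) did not pass either. Atf3 and Jun stood far higher in wild-type 3 than in the other libraries. In wild-type 1, 2 and 3, Atf3 had 3.18, 3.59 and 11.04 CPM and Jun 8.98, 8.76 and 18.2 CPM. In Eda-/- 1, 2 and 3, Atf3 had 3.14, 1.41 and 1.33 CPM and Jun 3.41, 6.47 and 3.12 CPM. Fos was also highest in wild-type 3, and Dusp1 in wild-type 2. Each of the 5 genes that passed, Sgk1, Errfi1, Cirbp, Hspa1a and Junb, lost its call when 1 of several libraries was left out. Sgk1 lost it without wild-type 1 or 3 or Eda-/- 1 or 2 (adjusted p up to 0.0705). Errfi1 lost it without wild-type 2 or 3 or Eda-/- 1 or 3 (up to 0.117). Cirbp lost it without wild-type 1 or 3 or Eda-/- 2 (up to 0.056), and Hspa1a without any 1 Eda-/- library (up to 0.0974). Junb lost it without any 1 library other than wild-type 2 (up to 0.164), and had -0.27 without wild-type 3. In DESeq2 Sgk1 (adjusted p = 0.0814), Errfi1 (0.0832) and Junb (0.0641) did not pass, nor did Junb in limma-voom (0.0706) or after the GC and length correction (0.0588).

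Some markers of other cells differed between the groups beside the clock genes. Of all tested genes 6.9% passed lower and 6.21% higher. Of 8 macrophage markers 5 fell, with a summed level of 28.0 to 34.9 CPM in Eda-/- and 58.2 to 110.1 CPM in wild-type glands. Wild-type 3 was the highest library for all 8. In wild-type 1, 2 and 3, C1qa had 8.23, 8.12 and 16.3 CPM and Csf1r 10.2, 11.9 and 16.9 CPM. Of 6 myoepithelial markers 3 fell, with 92.3 to 109 CPM in Eda-/- and 125 to 163 CPM in wild-type glands. Of 5 fibroblast markers 3 fell, with 105 to 112 CPM in Eda-/- and 141 to 165 CPM in wild-type glands. Of 5 endothelial markers none passed, with 21.8 to 25.6 CPM in Eda-/- and 22.4 to 26.5 CPM in wild-type glands. Of 3 tested duct markers the bicarbonate transporter gene Slc4a4 fell (-0.68, adjusted p = 0.00355). The summed levels of the list were 168 to 201 CPM in Eda-/- and 186 to 213 CPM in wild-type glands. Most of that sum was the keratin gene Krt8, which did not pass. Krt8 had 150 to 185 CPM in Eda-/- and 164 to 190 CPM in wild-type glands. Of 8 acinar markers Bhlha15 rose (0.36, adjusted p = 0.00694) and Sox10 fell (-0.73, adjusted p = 0.035). Jchain, the only tested marker of B and plasma cells, averaged 37.5 ± 14.8 CPM in Eda-/- and 13.2 ± 12.6 CPM in wild-type glands and did not pass (adjusted p = 0.328). Adipocyte markers summed to 3.59 to 4.59 CPM in Eda-/- and 1.06 to 1.75 CPM in wild-type glands, and Fabp4, the only tested member of the 5, rose. Fabp4 alone had 2.34 to 3.19 CPM in Eda-/- and 0.41 to 1.03 CPM in wild-type glands. Of the members too low to be tested, Adipoq and Plin1 had higher means in Eda-/- and Lep a lower one. Cidec averaged 0.23 CPM in both groups. Of 2 tested markers of the Harderian gland, a neighbouring lipid-secreting gland, neither passed, and Scd1 made up nearly all of the level of the 5 listed. Markers of skeletal muscle, T cells and salivary gland summed to at most 2.12 CPM in any library. No marker of the macrophage, myoepithelial, fibroblast, endothelial and adipocyte lists was at 0 in all libraries. The part of any of these cells in the lower Per2 and Per3 was not tested.

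The profiles nearest to those of Dbp and Arntl over the 6 libraries were taken among 12185 tested genes with a mean of at least 1 CPM, by the root mean square difference of log2 CPM centred on each gene's mean. Nearest to Dbp were Rel (0.17), which encodes an NF-kB subunit and fell (log2 fold change -0.80, adjusted p = 0.00429), and the predicted genes Gm38067 (0.18) and Gm33586 (0.20). Nearest to Arntl were 4930412C18Rik (0.18), Elk3 (0.19), a transcription factor of the ETS family, and E230016M11Rik (0.20), none of which passed. These lists rest on 6 libraries and describe likeness of profile alone.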

How the data were processed

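The deposited table gives raw read counts per gene, 1 column for each of 6 libraries. Reads were trimmed, aligned and counted against GRCm38.p5 with tools that include Trimmomatic, STAR and featureCounts, per the submitters' processing notes. Not given in the sources used here are versions, annotation, strand setting and filters. Columns were matched to samples by title (0 unmatched) and groups came from the genotype label. Symbols and coordinates came from GENCODE M21 (GRCm38), which matched 50462 of 50686 identifiers. The members and gene lists were chosen with earlier results of these data known.

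Genes kept by filterByExpr (minimum count 10) entered edgeR 4.0.16 under R 4.3.3 (TMM scaling, genotype alone, robust quasi-likelihood, two-sided, Benjamini-Hochberg over 13178 genes). The standard error is the absolute log2 fold change over the square root of F. CPM are TMM-scaled; log2 CPM use a prior count of 2, and levels per kb divide by the exon union. Poisson intervals (95%) cover counting error only. The fit was run on simulated counts with the same spread between replicates for every gene and changes placed only in well-counted genes. That run does not cover counts as low as those of Arntl or spreads that differ between genes. All members are named, with passing genes of the other clock lists (not every one is reported here) and up to 4 passing genes per cue list by p. Exon-overlapping genes and the 3 nearest profiles of Dbp and of Arntl are also named. Csnk1d, Csnk1e, Fkbp5, Rbm3, C1qa, Csf1r, Krt8, Adipoq, Plin1, Lep and Cidec were added after their values were seen. So were the genes of both phase lists, the heat-shock genes and the immediate early genes that did not pass. Alternatives were DESeq2 1.42.0, limma-voom (limma 3.58.1), other scalings and filters, removal of the 20 most abundant genes, a replicate block, each library left out and, added later, removal of a GC and length trend (99.81% of tested genes). Replicates differed by more than sampling noise (chi-square per degree of freedom 8.61 to 24.9).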

Additional observations from a re-analysis of the deposited data

How the results depend on the processing

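Of the 10 clock genes, the number that passed was 2 with DESeq2 size factors, upper quartile scaling, the stricter filter, removal of the 20 most abundant genes and DESeq2, and 3 with limma-voom (with Dbp) and with no filter on low counts (with Per1). It was 8 with library totals, 4 with the replicate block, 1 after removal of the GC and length trend, and 1 to 3 with each library left out (1 without wild-type 2). Over all tested genes, 819 were higher and 909 lower as reported, and 246 and 4365 with library totals. Without the GC and length trend 1422 were higher and 851 lower, and the cause of that trend was not tested. The median log2 fold change of all genes was -0.28 with library totals and 0.003 with TMM. TMM factors ran from 0.887 to 0.937 in Eda-/- and from 1.08 to 1.14 in wild-type libraries. Which scaling is nearer to the RNA content of the glands was not tested. With each library left out, 561 to 677 were higher and 599 to 834 lower. The arm difference ran from -0.70 to -0.08 with each library left out. Members that turned in sign were Clock (-0.24), Cry1 (-0.12) and Cry2 (-0.27) with library totals, Cry2 with upper quartile scaling (-0.0205) and without wild-type 3 or Eda-/- 3 (-0.0761 to 0.0669 with each library left out), and Arntl without Eda-/- 2 (-0.682 to 0.0104); none of these passed except Clock and Cry2 with library totals. The replicate numbers are shared by title only: deviations of same-numbered libraries correlated at -0.09 to 0.02, and 1 of 6 libraries correlated best with its own number. With the block, the 4 that passed were Dbp (adjusted p = 0.0003), Per1 (0.0344), Per2 and Per3. Arntl rests on 8 to 44 counts a library, which limits any statement on its direction.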
